A study of Mus musculus with 18 samples.

Results

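The insulin receptor and the proteins that carry or restrain its signal inside the cell were followed through the liver transcriptome by 10 genes, taken as a fixed list of names with earlier results of these data known. They are Insr (the receptor), Irs1 and Irs2 (its docking substrates), Pik3r1 (the regulatory subunit of phosphatidylinositol 3-kinase), Akt1 and Akt2 (the kinases downstream), Foxo1 and Foxo3 (transcription factors that the kinases hold out of the nucleus), Grb14 (an adaptor that binds the activated receptor and inhibits it) and Ptpn1 (the tyrosine phosphatase that removes phosphate from it). All 10 were found among the 54532 genes of the deposited table. All 10 were also among the 10216 genes tested, those with a mean of at least 1 FPKM over the 18 mice. FPKM are fragments scaled to the length of the gene and to a library size, which here differed from the plain fragment total.

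Livers of 18 male C57BL/6J mice (C57BL/6 in the labels) were sequenced, 6 in each of 3 groups. The NC mice ate normal chow. The HFD mice ate a high-fat diet for 14 weeks and then received saline while the diet went on. The SZ-A mice ate the same diet and received SZ-A, the alkaloids of Ramulus Mori (mulberry twig), in place of saline. No transgene or deletion is named for any group. The mice were 6 weeks old on arrival. The treatment lasted 6 or 8 weeks, since the methods and the deposited design differ, and the dose and route given to the sequenced mice are not stated in the sources used here. The study's mice were fasted overnight before the tissue was taken, so the levels are those of a fasted liver.

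Insulin binding makes the receptor phosphorylate itself and the Irs proteins, which recruit phosphatidylinositol 3-kinase and so activate Akt. In hepatocytes Akt then promotes glycogen and lipid synthesis and shuts off glucose production, the latter largely by phosphorylating FoxO proteins and keeping them from their target genes. Much of this control is by phosphorylation, which mRNA levels do not measure.

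The fragments assigned to genes totalled 17163191 to 20493907 per mouse, and a member gene was covered by 98 fragments (Irs2 in its lowest mouse) to 4122 (Insr in its highest). A pair of the control libraries needed separate treatment. NC5 stood apart, with a median absolute log2 difference of 0.324 from the mean of its group against 0.134 to 0.173 in the other NC mice. The HFD mice were at 0.135 to 0.192 and the SZ-A mice at 0.109 to 0.200, with HFD5 and SZ-A5 the highest. The diet label of NC6 reads high-fat diet and so goes against its chow title, by which it was kept in NC. On the 2025 genes called between HFD and the NC mice other than NC6, on a scale where the mean of those NC mice is 0 and the mean of HFD is 1, NC6 lay at 0.313, the other NC mice at -0.271 to 0.136, and the HFD mice at 0.934 to 1.08. The genes and both ends of the scale came from those NC and HFD mice, which draws them toward 0 and 1. NC6 and the SZ-A mice, at 0.565 to 0.831, took no part in it, so NC6 cannot be set evenly beside the other NC mice. Results of members that rest on NC5 or NC6 are given with and without them. For the further lists of genes this was done for calls in HFD against NC. The livers carried the markers of hepatocytes in every group, with a summed level of 8 markers of 42555 to 60775 FPKM in NC livers, 28514 to 47469 FPKM in HFD livers and 33898 to 59552 FPKM in SZ-A livers. The summed level of 8 macrophage and Kupffer cell markers was 91.3 to 195 FPKM in NC livers, 145 to 303 FPKM in HFD livers and 169 to 216 FPKM in SZ-A livers, and that of 8 stellate cell markers 42.8 to 60.6, 51.4 to 103 and 47.2 to 63.8. The 7 endothelial markers summed to 50.6 to 64.0 FPKM, 57.7 to 71.5 FPKM and 58.8 to 65.3 FPKM in the same order. The 6 cholangiocyte markers summed to 10.9 to 44.3 FPKM over the 18 mice, and all 7 lymphocyte and all 4 adipocyte markers had means under 1 FPKM. Of the cholangiocyte markers, Krt19, Krt7 and Epcam were highest in SZ-A5, at 8.45, 0.381 and 2.24 FPKM. Its Sox9, Spp1 and Cftr lay within the range of the other mice. In whole liver, fewer cells of a type and less RNA per cell cannot be told apart, and the part of these shifts in the results that follow was not tested.

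In NC livers the genes ranked, per length, in the order Akt2, Akt1, Insr, Grb14, Pik3r1, Foxo3, Irs2, Ptpn1, Foxo1 and Irs1, from 15.5 FPKM ± 1.14 (SD, n = 6) for Akt2 to 2.12 ± 0.782 for Irs1. Akt2 and Akt1 lay within their spread of each other, as did Akt1 and Insr, and Pik3r1, Foxo3, Irs2, Ptpn1 and Foxo1 from each to the next. Grb14 was set apart from its neighbours on both sides by more than the SD of either, and Irs1 from Foxo1. In HFD livers Pik3r1, at 11.4 ± 3.75 FPKM, had moved ahead of Grb14, at 5.90 ± 0.491, and Irs1 was again the lowest at 1.34 ± 0.196. Irs1 stood at the 13.3 percentile of the mean levels of all genes tested and Akt2 at the 78.0 percentile.

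**Figure D1:**
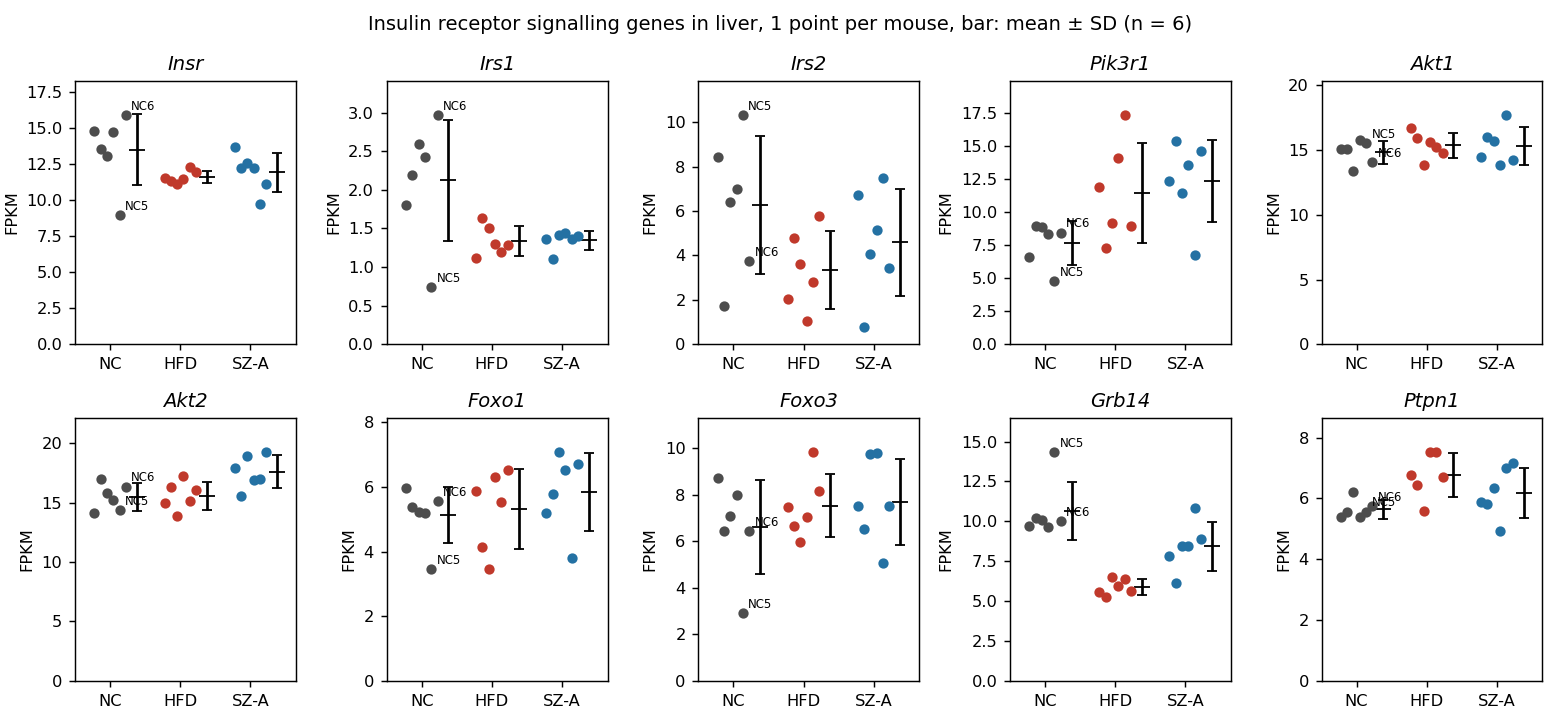
Level of each gene in FPKM (vertical axes, each starting at 0) in the 18 livers, 1 point per mouse, with the mean and SD of each group of 6 as a bar and NC5 and NC6 labelled. Grb14 is the only panel in which the HFD points (5.26 to 6.54 FPKM) and the NC points (9.65 to 14.3 FPKM) are fully apart, and NC5 is the lowest NC point in the panels of Insr, Irs1, Pik3r1, Foxo1 and Foxo3.

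The comparison of HFD with NC asked which of these genes differ after the high-fat diet. One member, the receptor inhibitor Grb14, fell, and it fell in every HFD mouse. The mean levels of both receptor substrates and of the receptor were lower in HFD and those of Pik3r1 and Ptpn1 higher, but with all 6 mice a group none of these 5 passed both thresholds, an adjusted p under 0.05 (limma, Benjamini-Hochberg over all genes tested) and a fold change over 1.2. Log2 fold changes of Akt1, Akt2 and Foxo1 were 0.05, 0.01 and 0.03. Thus 1 of 10 members was called, against 20.2% of all genes tested, and 1 of 10 had groups of mice that did not overlap, against 10.5% of all genes. At an unadjusted p under 0.05 the members counted 3 against 34.8%. Without NC5 the count of members called was 3 (Grb14, Insr and Irs1, against 21% of all genes) and without NC6 it was 1 (against 19.8%). By voom, on fragments worked back from the FPKM, it was 3 with plain totals (Grb14, Pik3r1 and Ptpn1, against 23.7%) and 2 with median-ratio totals (Grb14 and Ptpn1, against 19.7%). Their median log2 fold change was 0.02, beside -0.03 over all genes tested, and their median absolute change 0.25 beside 0.20.

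Grb14 (ENSMUSG00000026888, GRCm38 chromosome 2, 64912476 to 65024987, minus strand) encodes a member of the Grb7, Grb10 and Grb14 adaptor family that docks on the activated receptor and blocks its kinase. Its levels in NC1 to NC6 were 9.71, 10.2, 10.1, 9.65, 14.3 and 10.01 FPKM. In HFD1 to HFD6 they were 5.58, 5.26, 6.54, 5.98, 6.37 and 5.65 FPKM. The highest HFD mouse was below the lowest NC mouse. By log2 means Grb14 was 1.78-fold lower in HFD (log2 fold change -0.83, SE 0.10, 95% interval -1.05 to -0.62, adjusted p = 0.000186). The call held under all 26 alternatives tried, with log2 fold changes of -0.86 to -0.64. It was -0.75 without NC5, -0.85 without NC6 and -0.74 without both. Levels in SZ-A1 to SZ-A6 were 7.84, 6.13, 8.47, 8.46, 10.8 and 8.87 FPKM. Of the 6 SZ-A mice, 5 lay above every HFD mouse, and 5 below every NC mouse. The SZ-A mean was 8.43 ± 1.52 FPKM. By log2 means SZ-A was 1.41-fold above HFD (log2 fold change 0.49, SE 0.11, 95% interval 0.25 to 0.74, 6 of 6 above the HFD mean). The unadjusted p was 0.000746 and the adjusted p 0.0961 by limma, so that the difference was not called. Over 25 alternatives the adjusted p ran from 0.0164, without SZ-A2, to 0.204. It was called in 2 of them, without SZ-A2 and with array weights. Against NC, SZ-A livers had a log2 fold change of -0.34 for Grb14 (95% interval -0.62 to -0.06, adjusted p = 0.121), which passed only without SZ-A5 (-0.42, adjusted p = 0.0478) among 26 alternatives. The 3 comparisons share mice, and no test was made of whether the difference of SZ-A from HFD undoes that of HFD from NC.

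**Figure D2:**
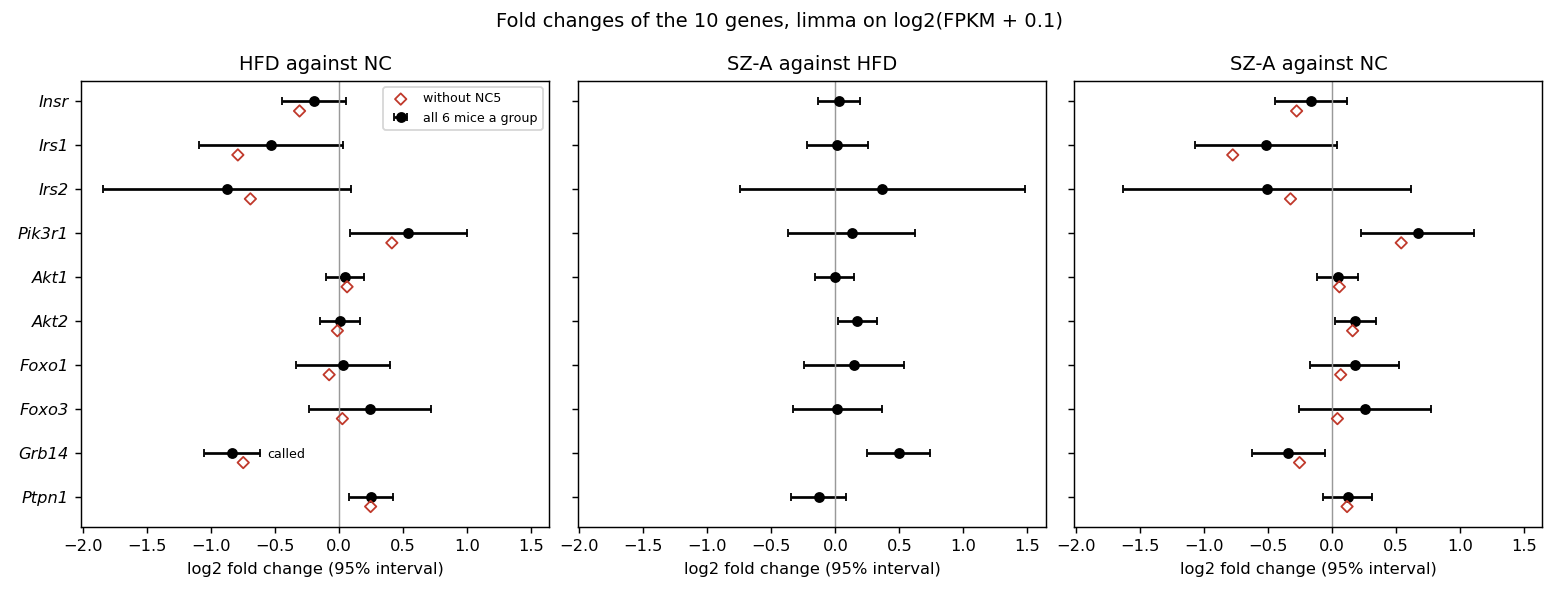
Log2 fold changes (horizontal axis, on log2(FPKM + 0.1)) of the 10 genes in the 3 comparisons, which share groups of mice, as filled points with 95% intervals, and without NC5 as open diamonds where NC takes part. Of the 30 points only Grb14 in HFD against NC is called, and without NC5 the diamonds of Insr and Irs1 move further below 0, to -0.31 and -0.79.

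Insr (chromosome 8, 3122061 to 3279617, minus strand) had mean levels of 13.5 ± 2.44, 11.6 ± 0.438 and 11.9 ± 1.35 FPKM in NC, HFD and SZ-A. The NC mice were at 14.8, 13.6, 13.1, 14.8, 8.94 and 15.9 FPKM, and the HFD mice between 11.1 and 12.3 FPKM. Every NC mouse except NC5 was above every HFD mouse, and NC5 was below them all. With all mice the log2 fold change of HFD against NC was -0.19 (SE 0.12, adjusted p = 0.265). Without NC5 it was -0.31 with an adjusted p of 0.00515, past both thresholds, and without both NC5 and NC6 it was -0.27 (adjusted p = 0.0122). The HFD mice were the tightest group of any member, with a coefficient of variation of 3.77%. SZ-A mice ranged from 9.75 to 13.7 FPKM and did not differ from HFD by the test (log2 fold change 0.03, 95% interval -0.13 to 0.20, adjusted p = 0.886).

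The ratio of Grb14 to Insr within a mouse sets the inhibitor against the receptor it binds, and the scaling between mice cancels in it. It was 0.657, 0.752, 0.770, 0.654, 1.60 and 0.630 in NC1 to NC6, and 0.484, 0.465, 0.588, 0.521, 0.517 and 0.473 in HFD1 to HFD6. No HFD mouse reached the lowest NC mouse. The ratio was 1.57-fold lower in HFD by geometric means (log2 difference -0.65, SE 0.21), with p = 0.002165 by a two-sided exact permutation test, the smallest that 6 against 6 can give, and 0.026 after adjustment over 12 ratio tests. Leaving out each mouse in turn gave differences of -0.72 to -0.45, and the smallest in size was without NC5. In SZ-A1 to SZ-A6 the ratio was 0.572, 0.502, 0.675, 0.691, 1.11 and 0.799, which overlaps both other groups. The difference of SZ-A from HFD was 0.47 on the log2 scale, with an exact permutation p of 0.0152 (adjusted 0.0909).

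**Figure D3:**
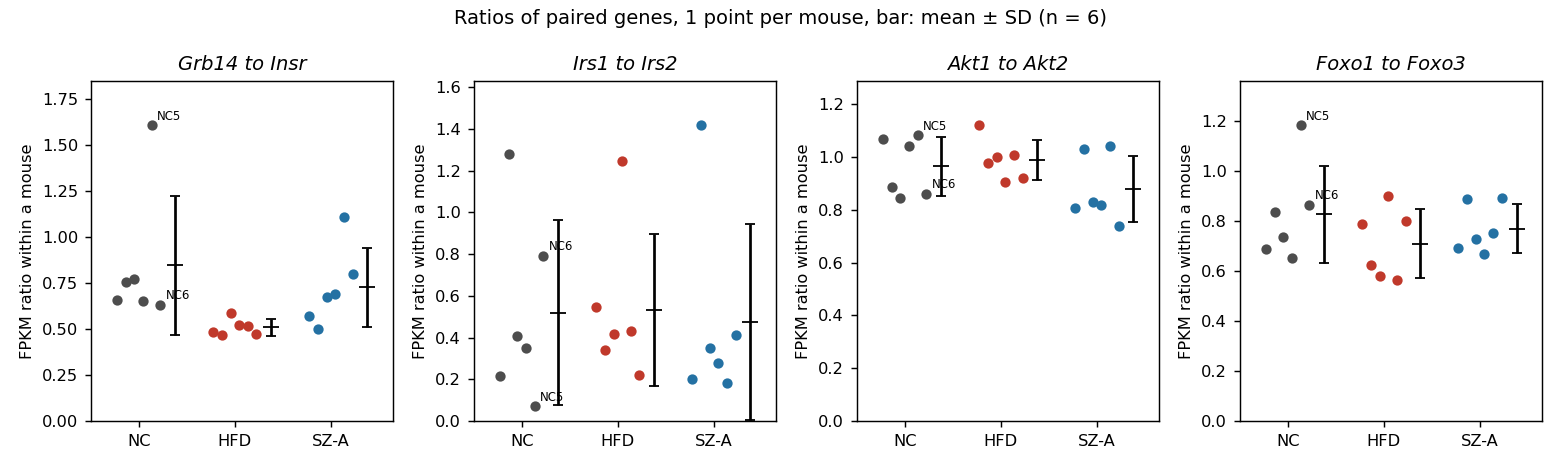
Ratio of FPKM values of 2 genes within each mouse (vertical axes from 0), 1 point per mouse, with the mean and SD of each group of 6. Only the ratio of Grb14 to Insr separates HFD (0.465 to 0.588) from NC (0.630 to 1.60), and the Irs1 to Irs2 ratio spreads from 0.0714 to 1.42 over the 18 mice.

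Irs1 and Irs2 are the main docking proteins of the receptor in liver, and both are genes that FoxO factors have been reported to activate. The 250 bases before their RefSeq start sites (GRCm38.p6, minus strand, 5′ to 3′) are shown with the stretch of Grb14, the member that was called. They are chr1:82291440-82291689 for Irs1, chr8:11008930-11009179 for Irs2 and chr2:65022767-65023016 for Grb14. Capitals mark the motif CAAAACA, a form of the core that forkhead factors bind, here as TGTTTTG on the opposite strand.
Irs1: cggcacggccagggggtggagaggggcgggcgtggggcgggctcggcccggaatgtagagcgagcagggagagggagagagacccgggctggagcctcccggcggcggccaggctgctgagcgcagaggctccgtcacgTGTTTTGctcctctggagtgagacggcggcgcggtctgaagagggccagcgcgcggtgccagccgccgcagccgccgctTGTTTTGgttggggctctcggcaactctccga
Irs2: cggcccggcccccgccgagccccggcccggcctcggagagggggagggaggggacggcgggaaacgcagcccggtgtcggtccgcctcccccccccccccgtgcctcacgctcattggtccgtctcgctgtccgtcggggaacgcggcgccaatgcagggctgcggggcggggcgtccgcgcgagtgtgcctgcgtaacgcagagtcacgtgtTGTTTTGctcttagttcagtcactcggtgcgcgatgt
Grb14: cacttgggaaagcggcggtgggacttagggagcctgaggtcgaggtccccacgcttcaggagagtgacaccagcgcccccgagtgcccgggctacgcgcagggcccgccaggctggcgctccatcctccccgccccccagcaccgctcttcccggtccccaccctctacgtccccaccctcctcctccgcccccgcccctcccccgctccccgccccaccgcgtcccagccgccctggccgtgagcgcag
The last 16 bases of the Grb14 stretch lie in an exon of the GENCODE M21 annotation, and those of Irs1 and Irs2 in none. The whole Grb14 stretch lies inside the gene as measured here, which on the minus strand begins at 65024987. It is thus not upstream of that gene, whereas the Irs1 and Irs2 stretches are upstream of theirs. Over 14 promoters of 9 members in the RefSeq set, each of 250 bases before and 50 after the start and read on both strands, CAAAACA was found in Irs1 (positions -111 and -32 from the start) and Irs2 (position -37), and the related GTAAACA in Akt1 (position -161), with no overlap of the motifs. Among all 32851 mouse promoters of this length, 6.28% hold CAAAACA and 3.65% hold GTAAACA. A match of letters is a description and no evidence of binding.

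Irs1 (chromosome 1, 82233101 to 82291416, minus strand) was at 1.81, 2.20, 2.60, 2.43, 0.736 and 2.97 FPKM in NC1 to NC6. HFD1 to HFD6 were at 1.12, 1.64, 1.51, 1.30, 1.198 and 1.28 FPKM, and SZ-A1 to SZ-A6 at 1.36, 1.11, 1.41, 1.44, 1.36 and 1.40 FPKM. As for Insr, NC5 was the lowest of all mice while the other 5 NC mice were above every HFD and every SZ-A mouse. With NC5 the log2 fold change was -0.53 in HFD (SE 0.26, adjusted p = 0.168) and -0.51 in SZ-A (SE 0.26, adjusted p = 0.229) against NC, neither called. Without NC5 it was -0.79 in HFD (adjusted p = 0.00188) and -0.77 in SZ-A (adjusted p = 0.00310), both called. Without both NC5 and NC6 it was -0.71 and -0.70 (adjusted p = 0.0047 and 0.0079). SZ-A and HFD lay together, with a log2 difference of 0.01 (95% interval -0.22 to 0.25).

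Irs2 (chromosome 8, 10984681 to 11008458, minus strand) was the most variable member, with coefficients of variation of 49.8%, 52.4% and 52.6% in the 3 groups. NC1 to NC6 were at 8.42, 1.71, 6.41, 6.97, 10.3 and 3.75 FPKM, HFD1 to HFD6 at 2.05, 4.79, 3.61, 1.04, 2.78 and 5.77 FPKM, and SZ-A1 to SZ-A6 at 6.70, 0.781, 4.04, 5.14, 7.46 and 3.43 FPKM. The groups overlap throughout, and NC2, HFD4 and SZ-A2 are the low mice of their groups. Although all 6 HFD mice were below the NC mean, the log2 fold change of -0.87 had a 95% interval of -1.84 to 0.10 (adjusted p = 0.188), and no alternative called it. The SZ-A mean was 4.59 FPKM beside 3.34 in HFD and 6.26 in NC, with an interval of -0.74 to 1.48 for the log2 difference from HFD. Within a mouse, the ratio of Irs1 to Irs2 showed no difference between groups by exact permutation (p of 0.520 to 0.998 in the 3 comparisons).

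Pik3r1 (chromosome 13, 101680563 to 101768217, minus strand) encodes the regulatory subunit that recruits the lipid kinase to the Irs proteins, and its short forms are counted in the same gene here. NC1 to NC6 were at 6.56, 8.92, 8.88, 8.34, 4.76 and 8.43 FPKM. HFD1 to HFD6 were at 11.9, 7.24, 9.15, 14.0, 17.3 and 8.92 FPKM, and SZ-A1 to SZ-A6 at 12.3, 15.4, 11.4, 13.5, 6.77 and 14.6 FPKM. Every SZ-A mouse except SZ-A5 was above every NC mouse, while HFD2 and HFD6 lay among the NC mice. HFD was 1.46-fold above NC by log2 means (0.54, SE 0.21, adjusted p = 0.0857) and SZ-A 1.59-fold above NC (0.67, SE 0.20, adjusted p = 0.0548), and neither was called. Without SZ-A5 the difference of SZ-A from NC was 0.83 with an adjusted p of 0.00622, and 6 of 26 alternatives called it. Without HFD2 that of HFD from NC was 0.66 with an adjusted p of 0.0441, and 3 of 26 alternatives called it. SZ-A and HFD did not differ by the test (0.13, 95% interval -0.37 to 0.63).

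Akt1 (chromosome 12, 112653821 to 112674884, minus strand) and Akt2 (chromosome 7, 27591552 to 27640826, plus strand) were expressed at nearly the same level per length, with a ratio of 0.964 ± 0.111 in NC. Akt1 was steady, at 14.8 ± 0.915, 15.4 ± 0.993 and 15.3 ± 1.44 FPKM in NC, HFD and SZ-A. Its log2 fold changes had 95% intervals of -0.10 to 0.20 for HFD against NC and -0.16 to 0.15 for SZ-A against HFD. Akt2, the isoform on which hepatic insulin action mainly rests, was at 15.5 ± 1.14, 15.6 ± 1.19 and 17.6 ± 1.39 FPKM. SZ-A1 to SZ-A6 were at 17.9, 15.6, 18.9, 16.9, 17.0 and 19.2 FPKM, all 6 above the NC mean, 5 above the HFD mean and 3 above every mouse of both other groups. The log2 fold change was 0.17 against HFD (unadjusted p = 0.0302, adjusted p = 0.278) and 0.18 against NC (unadjusted p = 0.0285, adjusted p = 0.140), and neither was called. The value against HFD went to -0.0046 after rescaling every mouse to the same FPKM sum, a setting that moved the median of all genes from 0.025 to -0.149.

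Foxo1 (chromosome 3, 52268336 to 52353221, plus strand) and Foxo3 (chromosome 10, 42181841 to 42276755, minus strand) encode the FoxO factors among the members. Foxo4, from the pathway lists and named after its values were seen, was higher in mean, at 8.25, 8.63 and 9.09 FPKM in NC, HFD and SZ-A. It was called in no comparison. Foxo1 was at 5.13 ± 0.874, 5.31 ± 1.24 and 5.85 ± 1.21 FPKM in NC, HFD and SZ-A, and Foxo3 at 6.60 ± 2.01, 7.52 ± 1.35 and 7.69 ± 1.84 FPKM. In NC5 they were at 3.45 and 2.92 FPKM, the lowest NC values, and in SZ-A5 at 3.80 and 5.07 FPKM, the lowest SZ-A values. None of their 6 tests was called (adjusted p of 0.468 at the lowest), and the 95% intervals of HFD against NC were -0.33 to 0.40 for Foxo1 and -0.23 to 0.72 for Foxo3. Without NC5 the log2 fold change of Foxo3 went from 0.24 to 0.03 and that of Foxo1 from 0.03 to -0.08, neither called. Ratios of Foxo1 to Foxo3 did not separate the groups (exact permutation p of 0.238 to 0.628).

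Ptpn1 (chromosome 2, 167932057 to 167979385, plus strand) was at 5.41, 5.55, 6.21, 5.39, 5.56 and 5.75 FPKM in NC1 to NC6 and at 6.77, 6.46, 5.599, 7.53, 7.51 and 6.72 FPKM in HFD1 to HFD6. All HFD mice except HFD3 were above every NC mouse. The log2 fold change of 0.25 (SE 0.08) had an adjusted p of 0.0397, but its fold change of 1.19 was under 1.2, so that it was not called, and 7 of 26 alternatives called it. Its adjusted p was 0.0457 without NC5 and 0.0554 without NC6. Without HFD3 it was called, at 0.31 with an adjusted p of 0.0135, and also without NC3, at 0.28 with an adjusted p of 0.0380. SZ-A mice were at 5.87, 5.83, 6.35, 4.94, 6.99 and 7.15 FPKM and lay across both groups, with a log2 difference of -0.13 from HFD (adjusted p = 0.581). Thus of the 2 genes whose products act on the receptor to lower its signal, Grb14 was lower in HFD and the mean of Ptpn1 was higher.

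Genes that overlap a member in the annotation added little to these values. None of those listed exceeded 0.675 FPKM in any mouse, and no annotated gene overlaps Grb14, Akt2, Foxo3 or Ptpn1.

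The comparison of SZ-A with HFD asked what the treatment changes on the diet. No member was called by limma, where 15 of all genes, or 0.147%, were. That count of genes depended on the processing, from 0 without a filter to 233 with array weights. The study, by DESeq2 at the same thresholds, reported more genes than any of these fits. At an unadjusted p under 0.05 there were 2 members (Grb14 and Akt2), against 14.8% of all genes, and voom also called 0 of 10 with either scaling, against 0.666% and 0.303% of all genes. None of the members had groups that did not overlap, against 1.28% of all genes. Both members with the smallest p were higher in SZ-A. In SZ-A against NC limma again called 0 of 10 members, against 9.6% of all genes. At an unadjusted p under 0.05 there were 3 (Grb14, Pik3r1 and Akt2) against 25.5%, and voom called 1, Pik3r1, with either scaling (against 10.2% and 9.73%). No member had groups that did not overlap, against 5.5% of all genes. Without NC5 the count was 1 (Irs1, against 11.3%), and without SZ-A5 it was 2 (Pik3r1 and Grb14, against 11.5%).

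Single mice departed from their groups across several members at the same time. NC5 had the lowest NC level of 5 members (Insr, Irs1, Pik3r1, Foxo1 and Foxo3) and the highest of Irs2 and Grb14. SZ-A5 had the lowest SZ-A level of 4 of the same 5 (all but Irs1) and the highest of Irs2, Grb14 and Akt1. In HFD it was HFD3 that had the lowest level of 6 members (Insr, Akt1, Akt2, Foxo1, Foxo3 and Ptpn1) and the highest of Grb14. SZ-A2 had the lowest SZ-A level of 4 members (Irs1, Irs2, Akt2 and Grb14).

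**Figure D4:**
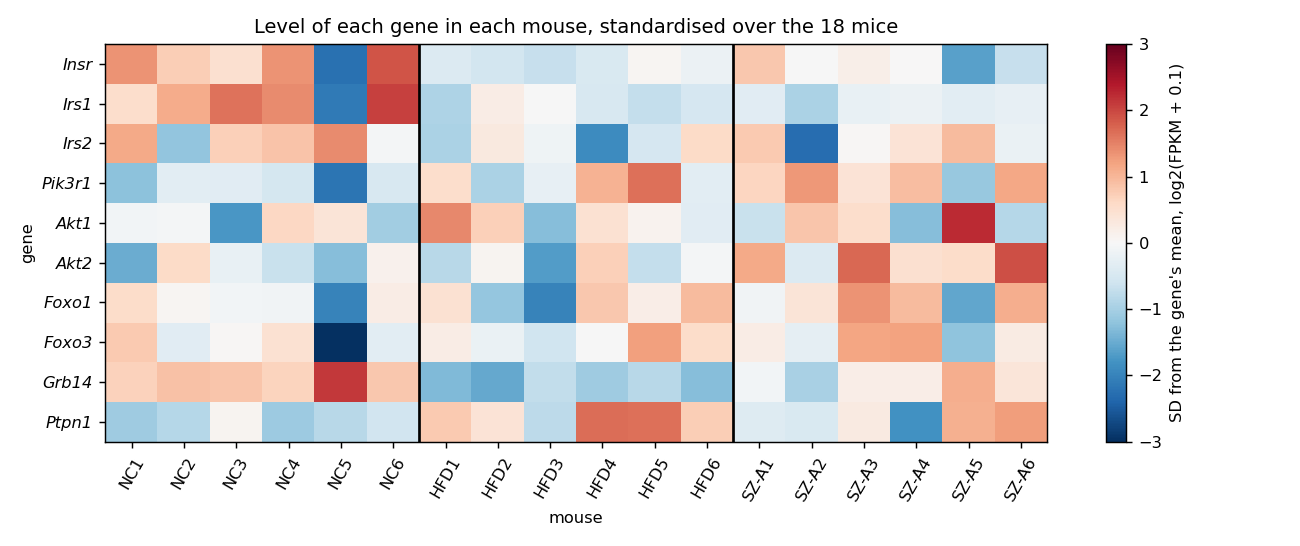
Level of each of the 10 genes (rows) in each of the 18 mice (columns), as the number of SD from the gene's mean over all mice on the log2(FPKM + 0.1) scale, with black lines between groups. NC5 and SZ-A5 share low Insr, Pik3r1, Foxo1 and Foxo3 beside high Irs2 and Grb14, and the Grb14 row is low in all 6 HFD mice.

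The other genes of the pathway were read from lists of 89 genes (ligands and receptors, adaptors, lipid kinase subunits, kinases downstream, Akt and mTORC1 substrates, the MAPK arm and inhibitors), of which 65 were tested. In HFD against NC 4 were called higher and 9 lower, together 20% beside 20.2% of all genes, with a median log2 fold change of -0.03 that equals that of all genes. The share called was thus close to that of the liver as a whole. In SZ-A against HFD limma called 0 of 65 (0.147% of all genes tested), and 10 had an unadjusted p under 0.05 (14.8% of all genes tested). In SZ-A against NC 5 were called (2 higher and 3 lower), or 7.69% beside 9.6%. Insulin itself was listed at 0 FPKM in all 18 livers for both Ins1 and Ins2, and Igf1r and Grb10 were under the level filter.

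Of 11 genes of the MAPK arm, the branch that leads from the receptor to growth, 4 fell in HFD and none rose, 36.4% beside 9.49% of all genes called lower. Braf was lowest against NC, at 1.25 ± 0.159 beside 1.97 ± 0.181 FPKM (log2 fold change -0.63, adjusted p = 0.00131). Sos1 and Araf, named after their values were seen, fell by 0.46 and 0.31 on the log2 scale (adjusted p = 0.00545 and 0.0148), and Araf was not called without HFD6, where it fell by 0.26. Braf was also lower in SZ-A than in NC (-0.54, adjusted p = 0.00459). Sos1 was called there as well (-0.41, adjusted p = 0.0270) but not without NC1, NC2, NC3, NC6, SZ-A2 or SZ-A6, each in turn (adjusted p of 0.0501 to 0.0607).

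Of 21 inhibitors tested, 3 rose and 3 fell in HFD, together 28.6% beside 20.2% of all genes. Ptprf, named after its values were seen, was not among them (0.53, adjusted p = 0.0576). It was called higher without NC5 (0.34, adjusted p = 0.0168) and without NC6 (0.62, adjusted p = 0.0359). Socs3, which blocks the receptor's access to its substrates, rose from 2.32 ± 0.572 FPKM in NC to 4.47 ± 1.55 in HFD (log2 fold change 0.87, adjusted p = 0.0136) and was at 5.69 ± 3.20 in SZ-A. Prkce, the lipid-activated protein kinase C epsilon, rose by 0.34 (adjusted p = 0.0250) but was not called without NC4 or HFD4 (adjusted p = 0.0556 and 0.0503). Ceacam1, which promotes insulin clearance by the liver, fell from 28.9 ± 5.46 FPKM in NC to 19.5 ± 1.98 in HFD (-0.55, adjusted p = 0.00486) and was at 20.1 ± 2.07 in SZ-A (-0.51 against NC, adjusted p = 0.0161). Ppp2ca, the catalytic subunit of protein phosphatase 2A, fell by 0.32 (adjusted p = 0.00508). Prkcd (0.45, adjusted p = 0.0417) and Grb7 (-0.28, adjusted p = 0.0456), named after their values were seen, lost the call in 9 and 10 of the 12 fits that leave out 1 mouse, among them that without NC5 for Prkcd (0.40, adjusted p = 0.0673). Their adjusted p reached 0.0895 and 0.0972. Prkcd kept the call without NC3, NC6 or HFD5, and Grb7 without NC5 or NC6. Socs3 was called in SZ-A against NC (1.11, adjusted p = 0.0378), and 7 of 12 such fits lost that call (adjusted p of 0.0510 to 0.0828), those without NC1, NC2, NC3, NC5, NC6, SZ-A3 and SZ-A6.

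Among adaptors, Gab1, which links receptors to the lipid kinase, rose in HFD (0.41, adjusted p = 0.0205, lost without HFD2 at 0.0502). It was also called in SZ-A against NC (0.45, adjusted p = 0.0402), a call lost in 9 of 12 fits without 1 mouse, at adjusted p of 0.0501 to 0.0951, and kept without NC4, NC6 or SZ-A5. Crkl fell (-0.28, adjusted p = 0.0426), a call lost in 10 of the 12 fits (adjusted p up to 0.0882) and kept without NC5 or HFD5. Of 11 substrates of Akt and mTORC1 only Gsk3a, a glycogen synthase kinase, was called lower (-0.27, adjusted p = 0.0171), and its fold change was under 1.2 without NC3, NC4, NC5, HFD2, HFD3 or HFD6, each in turn (-0.26 to -0.25). Gsk3b, named after its values were seen, was called lower only without NC5 (-0.32, adjusted p = 0.0260). None of 4 lipid kinase subunits and 9 kinases downstream was called, with 1 and 2 at an unadjusted p under 0.05. Without NC5 there was 1 call in each, Pik3c2a (-0.60, adjusted p = 0.00626) and Pdpk1 (-0.40, adjusted p = 0.00371), both named after their values were seen.

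Lists of target genes further down were read as well, and the activity of the FoxO factors themselves was not measured. Of 12 genes known to be activated by FoxO factors, 4 fell in HFD and none rose, 33.3% beside 9.49% of all genes called lower, with a median log2 fold change of -0.50 beside -0.03. Pck1, which encodes the cytosolic phosphoenolpyruvate carboxykinase of gluconeogenesis, was at 1167 ± 238 FPKM in NC and 525 ± 95.6 in HFD, without overlap of the mice (-1.15, SE 0.15, adjusted p = 0.000253). Mttp, which loads lipid onto apolipoprotein B, fell from 72.7 ± 4.58 to 49.0 ± 5.55 FPKM (-0.57, SE 0.09, adjusted p = 0.000716). Calls of both held in all 12 fits without 1 mouse. G6pc, the glucose-6-phosphatase (-1.26, adjusted p = 0.0305), and Igfbp1, a fasting-induced binding protein (-2.16, adjusted p = 0.0367), named after their values were seen, were called with less certainty. Without NC5 they were at -1.15 and -1.72 (adjusted p = 0.0558 and 0.0601), and 6 and 8 of the 12 fits lost the call (adjusted p up to 0.0662 and 0.0784). G6pc lost it without NC1, NC3, NC5, HFD1, HFD4 or HFD6, and Igfbp1 kept it without NC2, NC6, HFD2 or HFD5. Without NC5 3 of the 12 genes were called, all lower, beside 21% of all genes called in either direction. Klf15, named after its values were seen, was called there (-0.58, adjusted p = 0.00313). With all mice Klf15 was at -0.42 (adjusted p = 0.105).

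Among 8 tested genes that insulin induces, 2 were called higher in HFD and none lower. This was 25%, beside 20.2% of all genes called in either direction. The list was split, with 4 genes higher and 4 lower and a median log2 fold change of 0.02 beside -0.03 over all genes. Without NC5 1 gene was also called lower, Acly (-0.38, adjusted p = 0.0455), named after its values were seen. Srebf1, the transcription factor gene of lipogenesis, was 1 of the 2 called higher. It was at 6.96 ± 3.26 FPKM in NC and 20.9 ± 10.02 FPKM in HFD (1.53, SE 0.34, adjusted p = 0.00752). The call held in all 12 fits without 1 mouse. In SZ-A Srebf1 was at 22.4 ± 12.7 FPKM (1.48 against NC, adjusted p = 0.0636), called without SZ-A5 (1.91, adjusted p = 0.00296) and without NC6 (1.68, adjusted p = 0.0455).

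In SZ-A against HFD none of the 12 FoxO-activated genes was called by limma, beside 0.147% of all genes, and 4 were at an unadjusted p under 0.05, beside 14.8% of all genes. Pck1 was at 762 ± 145 FPKM in SZ-A (0.53 against HFD, adjusted p = 0.133), Mttp at 59.0 ± 3.998 (0.27, adjusted p = 0.160), Klf15, a fasting-induced factor of amino acid catabolism, at 80.8 ± 9.34 beside 64.0 ± 7.14 (0.33, adjusted p = 0.139), and Pdk4, which restrains glucose oxidation, at 3.04 ± 2.14 beside 5.48 ± 1.67 (-0.96, adjusted p = 0.193). Pdk4 was thus lower in mean in SZ-A than in HFD where the other 3 were higher, and without SZ-A5 it was called (-1.25, adjusted p = 0.0393). Against NC 3 of the 12 were called in SZ-A, all lower, or 25% beside 9.6% of all genes called in either direction. They were Pck1 (-0.61, adjusted p = 0.0236, lost without NC4, SZ-A1 or SZ-A6 at 0.0509 to 0.0575), Pdk4 (-1.58, adjusted p = 0.0177) and Mttp (-0.30, adjusted p = 0.0175). Of the 8 insulin-induced genes tested, 2 were called in SZ-A against NC, 1 higher and 1 lower, or 25% beside 9.6% of all genes. Their median log2 fold change there was 0.34, with 6 genes higher and 2 lower. The gene called lower was Me1, the malic enzyme (-0.54, adjusted p = 0.0175).

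**Figure D5:**
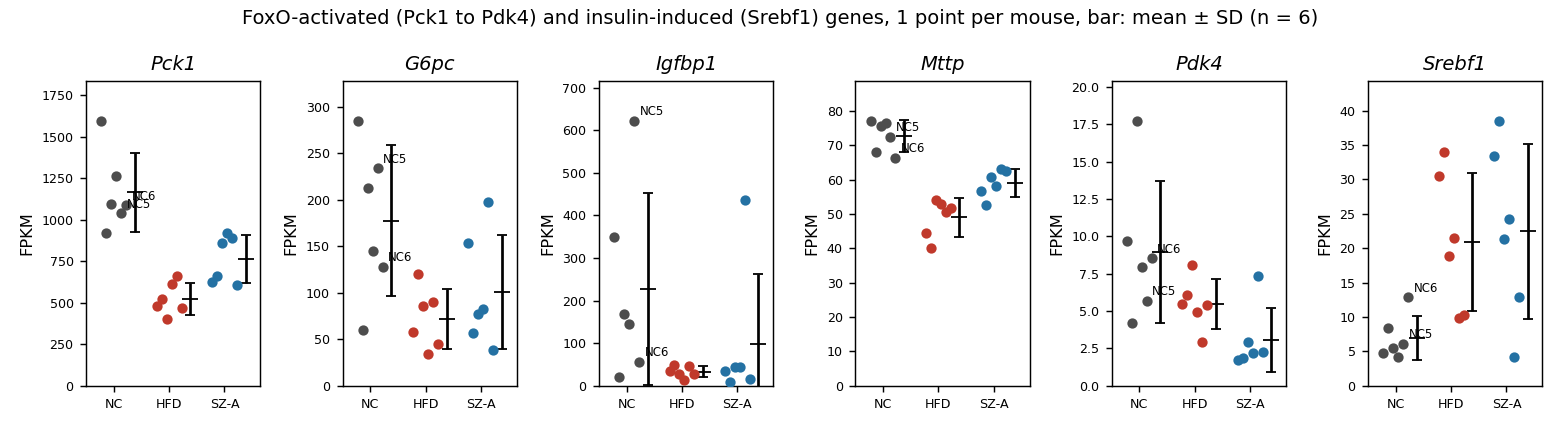
FPKM (vertical axes from 0) of 5 FoxO-activated genes (Pck1, G6pc, Igfbp1, Mttp and Pdk4) and the insulin-induced gene Srebf1, 1 point per mouse, with the mean and SD of each group of 6 and NC5 and NC6 labelled. All HFD mice lie below all NC mice for Pck1 and Mttp, and single mice, NC5 at 622 FPKM and SZ-A5 at 436 FPKM, carry much of the Igfbp1 mean of their groups.

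Over the 18 mice, the genes outside the family with the profile most like that of Grb14 were Ufd1 (ENSMUSG00000005262) and Map7 (ENSMUSG00000019996), with root mean square distances of 0.369 and 0.376 between standardised profiles, beside a median of 1.36 over all genes tested. Ufd1, a cofactor in the extraction of ubiquitinated proteins, was at 8.46 ± 0.506, 6.46 ± 0.518 and 7.49 ± 0.544 FPKM in NC, HFD and SZ-A. Map7, a microtubule-associated protein, was at 5.27 ± 0.734, 3.08 ± 0.147 and 3.71 ± 0.538 FPKM.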

How the data were processed

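RNA of 18 mouse livers was measured by poly-A selected, paired-end sequencing on an Illumina NovaSeq. The authors aligned reads to mm10 (GRCm38) with HISAT2 2.0.5, and the submitters' notes name featureCounts 1.5.0-p3. The authors deposited FPKM per gene for every mouse, and these FPKM were the only values used. FPKM times gene length gave whole fragments for 100% of values within 0.05.

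Groups came from sample titles. Genes that averaged 1 FPKM or more over all mice were tested on log2(FPKM + 0.1) by limma 3.58.1 (R 4.3.3, empirical Bayes with a trend), on the 6 mice of each group compared, with Benjamini-Hochberg adjustment over 10216 genes, with calls made below 0.05 in adjusted p and beyond 1.2 in fold change. A fold change on this scale understates changes of low genes. Ratios were tested by two-sided exact permutation (SciPy 1.17.1). Alternatives were other pseudocounts (1 and 0.01), filters and scalings, voom on fragments worked back from FPKM, array weights, a replicate block and leaving out each mouse, and leaving out NC5 and NC6 together was added after the data were seen. The scripts were tested on simulated data. The members and gene lists were chosen with earlier results of these data known. All members were named, and of each pathway list at most the 2 called genes of smallest adjusted p per direction, besides those said to be named later. Some genes of the lists are counted but not reported here. Promoters are those of RefSeq (GRCm38.p6), which matched 9 members. Mice with the same replicate number were not treated as pairs.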

Additional observations from a re-analysis of the deposited data

Results flagged for a closer look

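Among 30 sets of 6 mice (10 genes in 3 groups), 3 held a mouse whose gap to the nearest other mouse, over the whole range of the group, was above Dixon's 95% critical value for 6 samples, and among 12 sets of ratios another 3 did. Chance flags about 1 set in 20. Foxo1 in NC5 was at 3.45 FPKM (gap over range 0.691) and Grb14 in NC5 at 14.3 FPKM (0.882). The Grb14 to Insr ratio of NC5 was 1.60 (0.856). These 3 belong to the library that stood apart from its group. Irs1 in SZ-A2 was at 1.11 FPKM (0.770). The ratio of Irs1 to Irs2 was 1.42 in SZ-A2 (0.816) and 1.25 in HFD4 (0.684), the mice with the lowest Irs2 of their groups.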

How the results depend on the processing

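The fall of Grb14 in HFD kept its call under every alternative. Of 764 fold changes of members under alternatives, 695 kept direction and call, 29 gained a call, 40 changed sign and none lost a call. Members called in HFD against NC numbered 3 after rescaling to a common sum, with array weights, under voom on plain totals and without NC5 and NC6, and 2 under median-ratio scaling, voom on median-ratio totals and with no fold threshold. Without 1 mouse they numbered 1 to 3 (3 without NC5). In SZ-A against HFD there was 1 with array weights and 0 to 1 without 1 mouse. In SZ-A against NC there were 2 with array weights and with the replicate block, 1 with a mean FPKM of at least 5, under both voom fits and without NC5 and NC6, and 0 to 2 without 1 mouse. Genes called in HFD against NC numbered 1271 with the filter at 5, and pathway genes 8 (8 to 15 without 1 mouse). In SZ-A against HFD genes called numbered 0 without a filter and with the replicate block, 26 with the filter at 5, 216 on a common sum, 35 with all 18 mice in the fit, 233 with array weights, 68 and 31 under voom on plain and median-ratio totals, and 2 to 49 without 1 mouse. Pathway genes there numbered 3 on a common sum and with array weights and 1 under each voom fit. In SZ-A against NC genes called numbered 564 without a filter, 1682 with array weights and 601 to 1179 without 1 mouse. Pathway genes there numbered 2, 1, 3 and 11 without a filter, with the filter at 5, on a common sum and with array weights, and 2 to 7 without 1 mouse. The causes were not tested.

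No value that changed sign was called. In HFD against NC, Foxo1 was at -0.085 with array weights and -0.069 without NC5 and NC6 (-0.075 to 0.147 without 1 mouse), Akt2 at -0.015 with array weights (-0.020 to 0.043), and Foxo3 at -0.016 without NC5 and NC6. In SZ-A against HFD on a common sum, Insr, Irs1, Pik3r1, Akt2, Foxo1 and Foxo3 were at -0.146, -0.153, -0.050, -0.0046, -0.031 and -0.161. Under voom on plain totals Insr, Irs1 and Foxo3 were at -0.082, -0.101 and -0.098. Under median-ratio scaling Irs1 and Foxo3 were each at -0.0074, and under voom on median-ratio totals at -0.013 and -0.0074. These scalings moved the median of all genes to -0.149, -0.088, 0.003 and 0.003, and in HFD against NC to 0.154, 0.122, -0.009 and -0.008. Without 1 mouse Insr ran from -0.010 to 0.087, Irs1 from -0.032 to 0.070, Akt1 from -0.048 to 0.022 and Foxo3 from -0.060 to 0.126. In SZ-A against NC Foxo3 was at -0.00071 without NC5 and NC6. Ratios without 1 mouse ran from -0.12 to 0.71 (Irs1 to Irs2, HFD against NC), -0.48 to 0.36 (Irs1 to Irs2, SZ-A against NC), -0.15 to 0.026 (Foxo1 to Foxo3, SZ-A against NC), -0.31 to 0.022 (Grb14 to Insr, SZ-A against NC) and -0.23 to -0.13 (Akt1 to Akt2, SZ-A against HFD, with p of 0.0346 at the lowest by exact permutation).

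Over all genes tested, the deviations of mice with the same replicate number from their group means correlated at -0.117 to 0.292. Irs2, however, ran in the same order of replicate numbers in NC and SZ-A, highest in NC5 and SZ-A5 and lowest in NC2 and SZ-A2. In SZ-A against NC the replicate block took the SE of Irs2 from 0.52 to 0.12 and that of Pik3r1 from 0.20 to 0.09. Over all genes tested, the SZ-A mouse correlated best with the NC mouse of its own number for replicates 3, 4 and 5 (r = 0.107, 0.058 and 0.112). The same held for replicate 4 in HFD against NC and for replicate 2 in SZ-A against HFD. Whether mice of the same number share more than the number was not tested beyond this. With the replicate block 1647, 0 and 922 genes were called in HFD against NC, SZ-A against HFD and SZ-A against NC, and the members added in the last were Irs2 (-0.51, adjusted p = 0.0367) and Pik3r1 (0.67, adjusted p = 0.00628). The block changed no other call of a member. Irs1 and Irs2 were the most thinly covered members, at 109 to 512 and 98 to 1055 fragments a mouse. A fragment count covers counting error only.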

Other observations

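Levels of Irs2 and of Igfbp1, a FoxO-activated gene, are set side by side here for mice chosen after their values were seen. The mouse with the lowest Irs2 of its group also had the lowest Igfbp1 in each of the 3 groups. These were NC2 (Irs2 1.71 FPKM, Igfbp1 21.3 FPKM), HFD4 (1.04 and 13.2 FPKM) and SZ-A2 (0.781 and 9.45 FPKM). The mouse with the highest Irs2 had the highest Igfbp1 in NC (NC5, 10.3 and 622 FPKM) and in SZ-A (SZ-A5, 7.46 and 436 FPKM). In HFD it did not, since HFD6 had the highest Irs2 (5.77 FPKM) and HFD2 the highest Igfbp1 (48.3 FPKM). No test was made of these relations.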
